A study of Mus musculus with 20 samples.

Results

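The earliest response of pre-B cells to IKZF1 was examined by setting the 2 libraries taken 30 min after induction against the 2 libraries of uninduced cells, 4 of the 20 libraries of a time course with 10 time points. The mouse pre-B line B3 carried an Ikaros-ERt2 construct introduced by retroviral transduction, in which IKZF1 is joined to a hormone-binding domain that holds it outside the nucleus until its ligand arrives. The 0 h cells had no treatment, and the 30 min cells had 500 nM 4-hydroxytamoxifen (4-OHT), so that the ligand itself and nuclear entry of IKZF1-ERt2 cannot be told apart, and no library of untransduced cells given 4-OHT was used here. RNA bound to chromatin, which is rich in transcripts still being made, was sequenced after rRNA depletion, and reads over introns and exons were counted per gene without a spike-in.

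IKZF1 (Ikaros) is a zinc finger transcription factor of lymphocytes that binds DNA at sites with a GGGAA core and recruits corepressors such as the NuRD deacetylase complex. In developing B cells it acts at the pre-B stage, where cells carry a pre-B cell receptor made of an immunoglobulin heavy chain and a surrogate light chain, divide under signals from that receptor and from IL-7, and then stop dividing to rearrange their light chain genes. Genes that respond within minutes in lymphocytes often encode feedback regulators of signaling, whose transcripts are short-lived.

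The 4 libraries held 44116303 and 42508165 counts at 0 h and 34868963 and 42867749 counts at 30 min, and they showed expression of B-lineage genes. Ebf1, a B-lineage transcription factor, stood at 9793 and 9951 CPM (the count scaled to sequencing depth with edgeR's TMM factors) on average at 0 h and 30 min, and Pax5 at 1074 and 1113 CPM. The 12 B-lineage markers tested of 14 summed to 11650 and 11730 CPM at 0 h and to 11750 and 11860 CPM at 30 min, most of it from Ebf1. Of the 14, 2 had 0 counts in all 4 libraries. The 5 T-lineage markers tested of 10 summed to between 11.7 and 12.8 CPM in each library, the 2 myeloid markers of 10 to between 5.80 and 6.91 CPM, and the 2 erythroid markers of 9 to between 0.490 and 0.785 CPM. Of the 2 fibroblast and endothelial markers tested of 10, Acta2, an actin of smooth muscle, rose by 0.50 on the log2 scale (edgeR quasi-likelihood test, adjusted p = 0.00191), a call lost without 3 of the 4 libraries. Ikzf1, whose counts do not tell the construct from the resident gene, stood at 4845 and 4838 CPM at 0 h and at 4990 and 4950 CPM at 30 min (adjusted p = 0.609).

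Within 30 min more genes were called lower than higher, and the excess of falls grew with the size of the change. The test covered the 16601 genes that reached 10 counts in 2 or more libraries. Of these, 68 fell and 9 rose by more than 2-fold with a Benjamini-Hochberg adjusted p below 0.01 in the quasi-likelihood test of edgeR, which is 0.41% and 0.0542% of the genes tested. At the same adjusted p-value and any fold, 787 genes fell and 614 rose, 4.74% and 3.7% of the genes tested. Falls made up 56.2% of the calls at any fold, 82.2% of those above 1.5-fold (250 against 54) and 88.3% of those above 2-fold. In bulk libraries a lower share of cells with a transcript and less of it in each cell cannot be told apart. Most calls were small, since 476 of the 787 falls and 531 of the 614 rises lay within 0.5 of 0 on the log2 scale. The median log2 fold change of all genes tested, called or not, was 0.01, with 7759 genes lower and 8746 higher.

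When edgeR tested against a 2-fold change itself, 14 falls and 0 rises were called, with 80 falls and 29 rises at an unadjusted p under 0.05. DESeq2's Wald test called 46 falls and 8 rises by the 2-fold rule. Of the 68 falls, 43 met both limits whichever of the 4 libraries was left out, 41 of the 48 with a mean of at least 1 CPM and 2 of the 20 below it. At any fold, 350 of the 787 falls and 174 of the 614 rises stayed called in that way. Without 1 library, 432 to 452 falls and 231 to 295 rises were called at any fold, and a fit of the 4 libraries alone called 1827 and 1608. Whether the replicates were separate cultures is not given in the labels, so that p-values measure the spread between these libraries, which may be technical. The titles number the 0 h libraries as replicates 1 and 2, but their descriptions give both the number 1 with a different suffix, which leaves it unclear whether they are 2 cultures or 2 libraries of 1 culture.

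**Figure D1:**
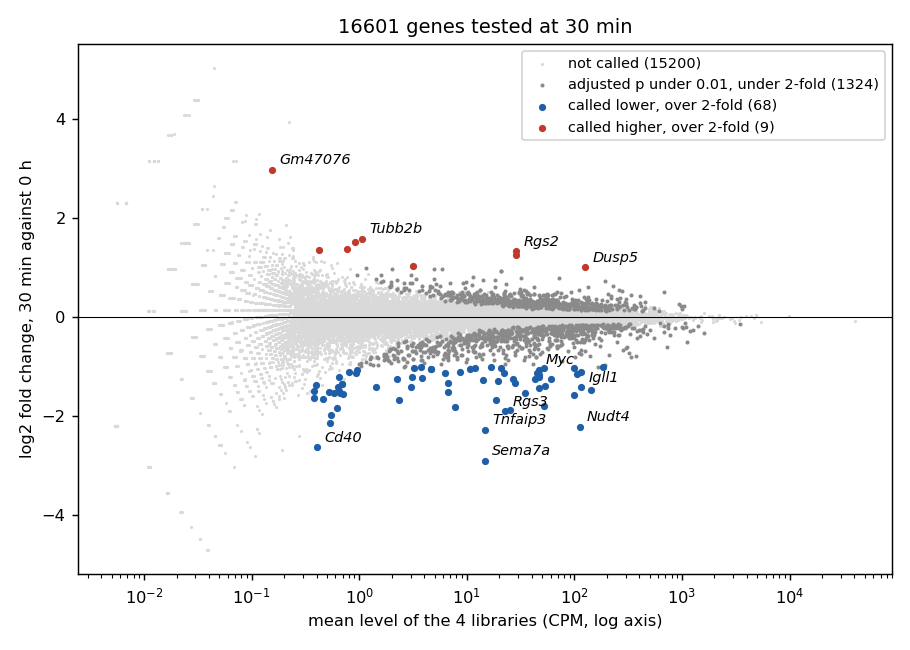
Each point is 1 gene, with its mean level over the 4 libraries in CPM on a log axis and its log2 fold change at 30 min against 0 h. Blue and red points are the 68 genes called lower and the 9 called higher by more than 2-fold, dark grey points passed the adjusted p-value at a smaller fold, and light grey points were not called. The blue points reach from below 1 CPM to over 100 CPM.

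Among genes with a mean of at least 1 CPM, Sema7a, Tnfaip3 and Nudt4 fell furthest. Sema7a, a membrane-anchored semaphorin that binds integrins, stood at 25.7 and 25.8 CPM at 0 h and at 3.79 and 3.16 CPM at 30 min, a log2 fold change of -2.90 (standard error 0.11, edgeR adjusted p = 1.09e-13). The groups were far apart, with 13.5% of the 0 h level left. Tnfaip3, which encodes A20, a ubiquitin-editing inhibitor of NF-kB signaling, went from 24.0 and 24.6 CPM to 5.17 and 4.90 CPM, a log2 fold change of -2.27 (standard error 0.08, edgeR adjusted p = 3.45e-14). Nudt4, a phosphatase of inositol pyrophosphates, went from 182 and 186 CPM to 39.9 and 39.8 CPM, a log2 fold change of -2.21 (standard error 0.05, edgeR adjusted p = 4.29e-18). These 3 fell by more than 4-fold, as did Cd40, a receptor of B cells for T cell help, and A930001A20Rik, both under 1 CPM. Cd40 had 34 and 29 counts at 0 h and 5 and 4 counts at 30 min, a log2 fold change of -2.62 (standard error 0.40, edgeR adjusted p = 9.04e-05).

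**Figure D2:**
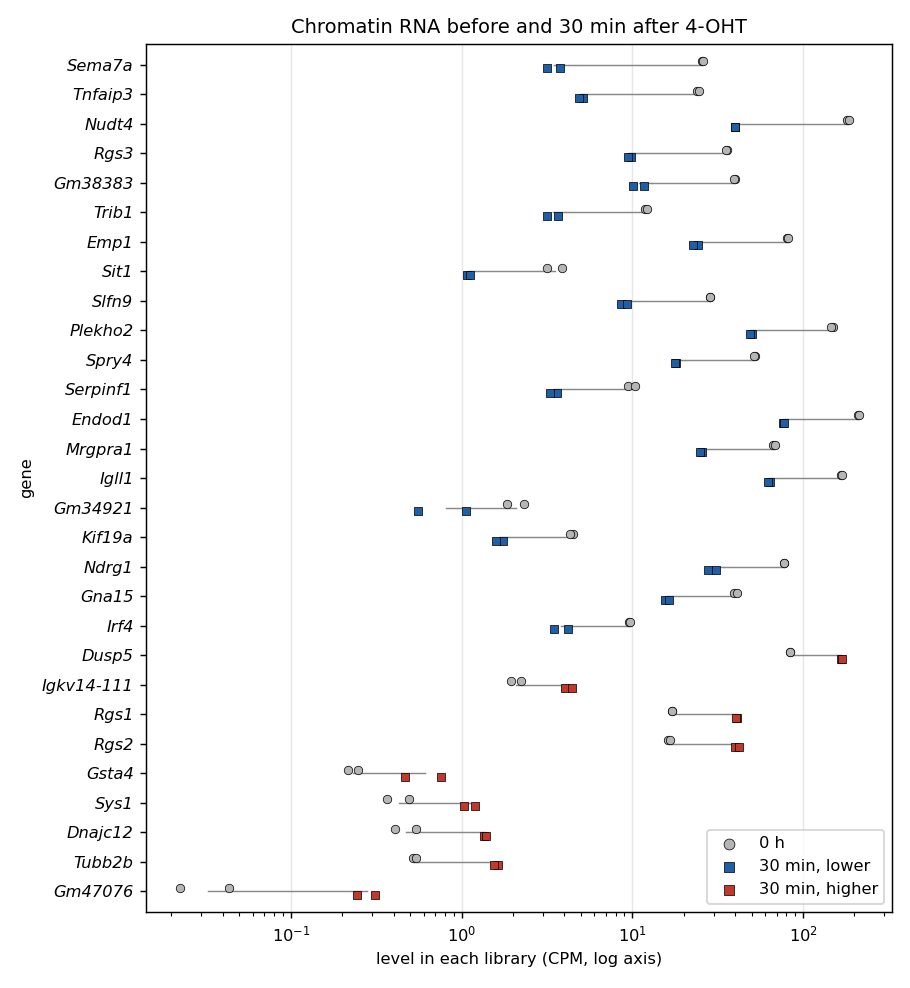
Levels in CPM on a log axis in each of the 4 libraries for the 20 largest falls of genes with a mean of at least 1 CPM and for the 9 rises. Grey circles are the 2 libraries at 0 h, squares are the 2 libraries at 30 min in blue (lower) or red (higher), and the line joins the group means. In each of these 29 genes the circles and squares do not overlap, which for the 20 falls was a condition of their choice.

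Behind these came Rgs3, which speeds the switching off of G proteins, from 35.9 and 35.4 CPM to 9.78 and 9.38 CPM (log2 fold change -1.90), and Gna15, a G protein alpha subunit, from 39.6 and 40.8 CPM to 15.6 and 16.3 CPM (-1.33). Both libraries at 30 min lay below both at 0 h for these and for all of the 68 falls. With 2 libraries a group this is common, since 9786 of all 16601 genes tested had no overlap in the direction of their change. Trib1, a pseudokinase that steers transcription factors to degradation, went from 11.8 and 12.3 CPM to 3.68 and 3.16 CPM (-1.82). Sit1, an adaptor that dampens antigen receptor signaling, went from 3.18 and 3.90 CPM to 1.08 and 1.11 CPM (-1.68). Emp1, a tetraspan membrane protein, went from 80.7 and 82.1 CPM to 24.4 and 22.7 CPM (-1.79). Irf4, a transcription factor that limits pre-B cell division and opens light chain loci, went from 9.53 and 9.75 CPM to 4.23 and 3.48 CPM (-1.33).

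Others of the 20 largest falls have less in common in what they encode. Slfn9 (log2 fold change -1.67) belongs to the Schlafen family, Kif19a (-1.40) is a kinesin, Mrgpra1 (-1.43) is a G protein-coupled receptor, and Serpinf1 (-1.51) is a secreted serpin without protease inhibition. Endod1 (-1.47), named for its endonuclease domain, went from 211.0 and 211.4 CPM to 75.9 and 77.1 CPM. Ndrg1 (-1.40), a stress-responsive gene, went from 77.2 and 77.6 CPM to 27.8 and 30.9 CPM. Gm38383 (-1.87) and Gm34921 (-1.41) have no assigned function, and the call of Gm34921 was lost without 0 h replicate 1 (-1.23) or without 30 min replicate 2 (-0.98). The 20 falls with a mean under 1 CPM include several other genes without a known protein, and 14 of the 68 are not protein-coding, 20.59% beside 21.52% of all genes tested.

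The bases before the start of 5 of these genes are shown because IKZF1 is known for the GGGAA core and because they stand for the largest fall (Sema7a), a fall with and one without the core among signaling and surrogate light chain genes (Tnfaip3, Igll1), another of the 20 largest falls (Slfn9) and a rise (Dusp5). Each is the 250 bases upstream of a RefSeq start in GRCm38.p6, 5′ to 3′ on the strand of the gene, and the start is that closest to the gene start in GENCODE M21. That start lies 247 bases inside the GENCODE gene for Tnfaip3 and 36 bases inside for Dusp5. The marked TTCCC of Tnfaip3 is thus within the GENCODE gene. Capitals mark GGGAA on either strand (TTCCC where it lies on the other strand) and, in Dusp5 alone, also 2 adjacent CArG boxes, the element bound by serum response factor.
Sema7a, chr9:57939862-57940111, plus strand: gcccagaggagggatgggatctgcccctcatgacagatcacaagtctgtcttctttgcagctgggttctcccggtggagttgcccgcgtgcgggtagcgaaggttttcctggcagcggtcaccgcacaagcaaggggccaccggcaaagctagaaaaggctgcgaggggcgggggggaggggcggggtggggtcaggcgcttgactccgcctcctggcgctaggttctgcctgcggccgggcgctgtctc
Tnfaip3, chr10:19015411-19015660, minus strand: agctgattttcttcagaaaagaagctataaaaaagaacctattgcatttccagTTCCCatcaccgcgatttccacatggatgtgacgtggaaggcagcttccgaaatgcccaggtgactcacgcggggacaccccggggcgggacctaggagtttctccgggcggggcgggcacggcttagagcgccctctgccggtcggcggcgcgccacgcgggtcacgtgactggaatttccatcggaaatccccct
Slfn9, chr11:82991831-82992080, minus strand: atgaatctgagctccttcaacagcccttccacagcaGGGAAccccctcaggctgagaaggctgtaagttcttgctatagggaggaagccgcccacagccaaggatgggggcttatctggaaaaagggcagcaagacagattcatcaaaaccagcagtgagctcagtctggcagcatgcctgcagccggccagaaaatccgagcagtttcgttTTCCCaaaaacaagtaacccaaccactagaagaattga
Igll1, chr16:16863986-16864235, minus strand: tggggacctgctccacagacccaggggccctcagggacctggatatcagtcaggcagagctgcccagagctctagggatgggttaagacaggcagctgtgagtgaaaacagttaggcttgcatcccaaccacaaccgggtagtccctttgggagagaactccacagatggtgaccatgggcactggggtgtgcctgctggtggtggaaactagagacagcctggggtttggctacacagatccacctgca
Dusp5, chr19:53528895-53529144, plus strand: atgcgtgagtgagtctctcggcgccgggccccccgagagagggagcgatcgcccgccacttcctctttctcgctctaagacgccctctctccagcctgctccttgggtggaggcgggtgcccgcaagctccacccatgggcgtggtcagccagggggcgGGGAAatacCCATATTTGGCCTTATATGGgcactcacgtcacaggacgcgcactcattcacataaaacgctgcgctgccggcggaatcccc
GGGAA stood in the 250 bases of 25 of 44 genes that fell by more than 2-fold (56.8%) and of 6580 of 11239 tested genes with such a sequence (58.55%). The longer TGGGAA, counted on both strands and always also a GGGAA match, stood in 7 of the 44 (15.9%), Tnfaip3 and Slfn9 among them, and in 2343 of all (20.85%). At any fold, the shares with GGGAA were 64.2% of 589 falls and 52.6% of 473 rises. A CArG box stood in 124 of all (1.10%), in 1 of the 44 (Myo1e) and in 1 of the 3 genes with a sequence that rose by more than 2-fold. A match of letters is not a bound site, and binding was not measured in these libraries.

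Inhibitors and subunits of NF-kB moved in both directions. Of 18 genes of that list tested, 4 fell and 1 rose at any fold, beside the 4.74% and 3.7% of all genes, with a list median of -0.03. The same shares are the background for the counts of every list below. Besides Tnfaip3, Nfkbiz, a nuclear IkB protein, went from 44.3 and 44.7 CPM to 24.9 and 25.9 CPM (log2 fold change -0.81, standard error 0.05, edgeR adjusted p = 3.57e-10). Nfkb2, which encodes p100, and Nfkbid, another nuclear IkB protein, fell by 0.51 each. Rel, which encodes the c-Rel subunit, rose from 62.0 and 61.8 CPM to 85.2 and 88.7 CPM (0.49, standard error 0.05, edgeR adjusted p = 1.39e-07). The calls of Tnfaip3, Nfkbiz and Rel held whichever library was left out, while the calls of Nfkb2 (-0.40 to -0.61) and Nfkbid (-0.39 to -0.62) were each lost without 2 of the 4.

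Of 19 members of the TNF and TNF receptor superfamily tested, 5 were called lower by edgeR and 0 higher, beside 4.74% and 3.7% of all genes. The other 14 were not called, and the list median was -0.26. At an unadjusted p under 0.05, 8 were lower and 0 higher, and DESeq2 called 3 lower and 0 higher. Tnf, the cytokine of the family's name, went from 9.12 and 8.02 CPM to 4.17 and 3.68 CPM, a log2 fold change of -1.13 (standard error 0.13, edgeR adjusted p = 2.57e-06). Tnfsf11, which encodes RANKL, went from 29.7 and 28.5 CPM to 19.3 and 18.7 CPM (-0.62). The others were Cd40 (above), Lta, which encodes lymphotoxin alpha (-0.54), and Tnfrsf13b, which encodes the receptor TACI (-0.36). The calls of Cd40, Tnf and Tnfsf11 held whichever 1 library was left out, whereas Lta lost its call without 3 of the 4 and Tnfrsf13b without 1.

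Feedback regulators of the MAP kinase pathway split, with 3 of the 68 falls and 1 of the 9 rises above 2-fold. Those limits were met by 0.41% and 0.0542% of all genes tested. Of 14 tested, 6 fell and 2 rose, with a median of -0.31, and 5 of the falls held whichever 1 library was left out. Spry4, a Sprouty inhibitor of receptor tyrosine kinase signaling, went from 52.2 and 51.6 CPM to 18.0 and 17.8 CPM (log2 fold change -1.54, standard error 0.07, edgeR adjusted p = 1.54e-12). Dusp6, a cytoplasmic phosphatase of ERK, went from 63.8 and 67.3 CPM to 28.2 and 28.5 CPM (-1.21, standard error 0.06, edgeR adjusted p = 2.93e-12). Dusp4, a nuclear phosphatase of ERK and JNK, went from 71.2 and 69.3 CPM to 33.7 and 35.0 CPM (-1.03). Spred1, Spry1 and Dusp2 fell by 0.72, 0.57 and 0.40.

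Dusp5, a nuclear phosphatase specific for ERK, moved the other way. It went from 83.6 and 83.5 CPM to 167 and 168 CPM, a log2 fold change of 1.005 (standard error 0.05, edgeR adjusted p = 1.70e-12). This is at the 2-fold line, and the value was 0.989 without a filter on low counts and 0.993 in a fit of the 4 libraries alone. The call above 2-fold was also lost with a filter of 10 counts in every library. Dusp10, a phosphatase of p38 and JNK, rose by 0.43, a call lost whichever of the 4 libraries was left out. Thus 2 phosphatases of ERK, Dusp6 and Dusp5, differed in direction in the same libraries.

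Regulators of small and heterotrimeric G proteins also moved in both directions. Of 28 tested, 3 fell and 4 rose, beside 4.74% and 3.7% of all genes, with a median of 0.00. Rgs2 and Rgs1, which like Rgs3 speed the switching off of G proteins, more than doubled, Rgs2 from 16.1 and 16.5 CPM to 40.0 and 42.2 CPM (log2 fold change 1.33, standard error 0.10, edgeR adjusted p = 2.64e-09) and Rgs1 from 17.0 and 17.2 CPM to 41.1 and 40.4 CPM (1.25, standard error 0.10, edgeR adjusted p = 2.40e-08). They lie 245 kb apart on chromosome 1, and Rgs13, which lies between them, was at 4.81 CPM at 0 h and 3.99 CPM at 30 min on average (-0.27, adjusted p = 0.219). Rhoh, a hematopoietic GTPase without GTP hydrolysis, rose by 0.28 and Rasa2, an inactivator of Ras, by 0.20, a call lost whichever of the 4 libraries was left out. Besides Rgs3, Rasgrp3, which activates Ras downstream of antigen receptors, fell by 0.87 and Rac2, a hematopoietic GTPase, by 0.44.

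The remaining rises above 2-fold were in genes of low level. Tubb2b, a beta-tubulin, had 0.519 and 0.540 CPM at 0 h and 1.63 and 1.56 CPM at 30 min (log2 fold change 1.58, standard error 0.21, edgeR adjusted p = 1.78e-05), and its neighbor Tubb2a rose from a mean of 1.37 ± 0.10 CPM to 2.67 ± 0.06 CPM (SD, n = 2, log2 fold change 0.96, edgeR adjusted p = 3.66e-05). The 2 genes are close in sequence and can share reads. Between them lies Gm47076, a noncoding RNA on the opposite strand with 2 and 1 counts at 0 h and 9 and 14 counts at 30 min, a ratio of 8.5 (95% exact interval 2.57 to 44.2, counting error only). Of 14 tubulin genes tested, Tuba8 fell by 0.91.

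Dnajc12, a J-domain cochaperone, went from 0.540 and 0.405 CPM to 1.35 and 1.38 CPM (log2 fold change 1.52). Sys1, a Golgi protein (1.38), and Gsta4, a glutathione transferase (1.36), were also near or under 1 CPM, and Sys1 shares its span with a gene on the same strand. Igkv14-111, a kappa light chain variable gene with close relatives, went from 2.23 and 1.94 CPM to 4.06 and 4.46 CPM (1.03). Only Dusp5, Rgs1, Rgs2 and Tubb2b met both limits without any 1 library. The lowest values without 1 library were 1.34 for Dnajc12, 1.18 for Sys1, 1.005 for Gsta4, 0.94 for Igkv14-111 and 2.62 for Gm47076. The call of Gm47076 was lost whichever of the 4 libraries was left out. Those of Dnajc12 and Gsta4 were lost without 3 of them, and those of Sys1 and Igkv14-111 above 2-fold without 2.

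Other genes of fast responses were called in both directions. In the list of immediate early AP-1 and EGR genes, 23 were tested, 2 rose and 2 fell, and the median was 0.06. Zfp36, which encodes tristetraprolin, a protein that speeds decay of mRNAs with AU-rich elements, went from 3.57 and 4.28 CPM to 8.13 and 7.29 CPM (log2 fold change 0.97, standard error 0.11, edgeR adjusted p = 1.76e-06). Srf, which encodes serum response factor, rose by 0.43. Nr4a3, an orphan nuclear receptor, fell by 0.93 and Ier2 by 0.59. The calls of Srf (0.40 to 0.45) and Nr4a3 (-0.84 to -1.06) were lost whichever of the 4 libraries was left out, and that of Ier2 (-0.83 to -0.36) without 3 of them. DESeq2 called 0 falls on this list, where 4 genes were lower at an unadjusted p under 0.05.

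The surrogate light chain fell while the heavy chain rose. Igll1, which encodes lambda5, went from 167 and 170 CPM to 64.1 and 62.3 CPM, a log2 fold change of -1.42 (standard error 0.06, edgeR adjusted p = 1.92e-13), which left 37.45% of the 0 h level. Vpreb1, its partner in the surrogate light chain, went from 18.3 and 16.8 CPM to 9.53 and 10.1 CPM (-0.84, standard error 0.08, edgeR adjusted p = 2.71e-07). Ighm, which encodes the heavy chain constant region, went from 179 and 181 CPM to 233 and 217 CPM (0.32, standard error 0.04, edgeR adjusted p = 2.15e-06). The list had 7 genes tested, and the other 4 were not called. Igll1 and Vpreb1 start 6.86 kb apart. Top3b, on the other strand, starts 6.75 kb from Igll1 on the same side as Vpreb1 and fell by 0.23. Ppm1f, 32.5 kb from Igll1, fell by 0.23 as well, while Spag6l, 34.5 kb away on the other side, was at 0.02 (adjusted p = 0.955).

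Of 24 genes that signal below the pre-B cell receptor, 4 fell and 1 rose, beside 4.74% and 3.7% of all genes, with a median of -0.06. Ptpn6, which encodes the phosphatase SHP-1, fell by 0.67, and Plcg2, Pik3ap1 and Fyn, which encode enzymes and an adaptor of antigen receptor signaling, fell by 0.28, 0.21 and 0.15. Slamf7, a receptor of the SLAM family placed on this list, rose from 15.0 and 13.6 CPM to 27.5 and 26.8 CPM (log2 fold change 0.93, standard error 0.07, edgeR adjusted p = 2.46e-09). The calls of Plcg2, Pik3ap1 and Fyn were lost whichever of the 4 libraries was left out. On the list of V(D)J recombination and end joining, with 11 tested, Dntt, which encodes TdT, fell by 0.59 and Lig4, the ligase of end joining, rose by 0.70, from 7.56 and 6.42 CPM to 10.7 and 12.0 CPM. Neither call held throughout when 1 library was left out: Dntt (-0.71 to -0.45) lost its call without 3 of the 4 libraries and Lig4 (0.59 to 0.82) without 2. On the list of IL-7 receptor, JAK-STAT and SOCS genes, with 13 tested, Socs2 fell by 0.56 and Bcl2l1, which encodes BCL-XL, by 0.31.

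Some genes that drive division were among the early falls. Myc went from 63.7 and 62.2 CPM to 30.6 and 29.6 CPM, a log2 fold change of -1.06 (standard error 0.09, edgeR adjusted p = 3.11e-08). Its partner Max fell by 0.16 and Mnt, which opposes it, rose by 0.44. Ccnd2, a D cyclin that drives entry into the cell cycle, went from 126 and 129 CPM to 73.4 and 72.8 CPM (-0.80, edgeR adjusted p = 5.78e-08), and Ccnd1 fell by 0.61, while Ccnd3 was at 0.20 (adjusted p = 0.183). Of 17 genes in the list of D cyclins, CDKs and their inhibitors, these 2, E2f3 (-0.17) and Cdk6 (-0.14) fell. By edgeR and by DESeq2 0 rose, and 3 were higher at an unadjusted p under 0.05. The median of this list was 0.06, with 7 genes lower and 10 higher. In the list of the MYC, MAX and MXD network the median was 0.07, with 4 of 9 lower and 5 higher. The calls of Max, Mnt, E2f3 and Cdk6 were lost whichever of the 4 libraries was left out.

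Of 32 genes of DNA replication 1 fell and 5 rose, and of 26 genes of mitosis 5 fell and 0 rose, beside 4.74% of all genes tested that fell and 3.7% that rose. Tyms, which encodes thymidylate synthase, went from 136 and 141 CPM to 85.4 and 81.6 CPM (log2 fold change -0.73, standard error 0.05, edgeR adjusted p = 2.40e-09), the only fall in the replication list, where Mcm10 (0.28), Mcm5 (0.20), Cdc45 (0.16) and Pole (0.14) were among those that rose and the median was 0.11. At an unadjusted p under 0.05, 14 replication genes were higher and 2 lower. In the mitosis list Plk1 (-0.40), Kif23 (-0.37), Ccnb1 (-0.32), Tpx2 (-0.30) and Aurka (-0.26) fell, and 0 were called higher by edgeR and by DESeq2, with 9 lower and 1 higher at an unadjusted p under 0.05. Of these calls in replication and mitosis, those of Tyms, Mcm10, Kif23 and Tpx2 held whichever 1 library was left out. Of 26 replication-dependent histone genes, 26 had a value below 0, beside 7759 of all 16601 genes, and 7 were called lower by edgeR and by DESeq2, with a median of -0.38, 19 lower and 0 higher at an unadjusted p under 0.05. The summed level of these histone genes was 312 and 307 CPM at 0 h and 245 and 229 CPM at 30 min. Each of the 7 calls was lost without at least 1 of the 4 libraries, and histone genes are near-copies of each other that can share reads.

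Transcription factors of the B lineage gave 5 falls and 2 rises among 29 tested, with a median of 0.02. Besides Irf4, the WNT-responsive factor Lef1 went from 1303 and 1302 CPM to 913 and 919 CPM (log2 fold change -0.51, standard error 0.04, edgeR adjusted p = 1.72e-08), Bcl11a, a repressor of early lymphoid cells, went from 622 and 623 CPM to 465 and 470 CPM (-0.41), and Gfi1b and Ets1 fell by 0.39 and 0.33. Gfi1, a repressor related to Gfi1b, rose by 0.58 and Sox4 by 0.26. The calls of Gfi1b, Gfi1 and Sox4 were each lost without at least 3 of the 4 libraries. Genes of the progenitor program gave 3 falls (Tal1 at -0.67, Bcl11a and Etv6) and 1 rise (Sox4) among 10 tested, and DESeq2 called 2 falls and 1 rise. Of these calls, that of Bcl11a held whichever 1 library was left out, those of Etv6 and Sox4 were lost whichever of the 4 was left out, and that of Tal1 (-0.77 to -0.57) was lost without 3 of them and in DESeq2's Wald test.

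Of 18 semaphorins, plexins and neuropilins tested, 0 were higher at an unadjusted p under 0.05, and the median was -0.12. By edgeR and by DESeq2 6 fell and 0 rose, beside 4.74% and 3.7% of all genes by edgeR. Besides Sema7a these were Sema6b (-0.77), Sema4b (-0.67), Plxnd1, Sema5a and Plxnb2, the last 3 by 0.33 to 0.49, and the calls of Sema7a, Sema4b and Plxnd1 held whichever 1 library was left out. Sema4b, a transmembrane semaphorin, went from 46.1 and 45.9 CPM to 29.0 and 28.8 CPM (edgeR adjusted p = 1.14e-07). Among adaptors of adhesion and the cytoskeleton, 4 of 23 fell and 1 rose. Plekho2, a protein with a pleckstrin homology domain, went from 151 and 146 CPM to 50.6 and 49.1 CPM (log2 fold change -1.57, edgeR adjusted p = 1.18e-14), and Pxn, which encodes the focal adhesion protein paxillin, from 134 and 132 CPM to 65.2 and 65.5 CPM (-1.02, edgeR adjusted p = 2.64e-07). Cnn3 fell by 0.74 and Rap1b by 0.21, and Ptk2b, a kinase of adhesion signaling, rose by 0.24. The call of Ptk2b was lost whichever of the 4 libraries was left out and that of Rap1b without 2 of them.

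Integrin, homing and surface receptor genes were called in both directions. Of 21 integrin subunits tested, Itgb1 fell by 0.35, Itgal fell by 0.29 and Itga6 rose by 0.16. Of 13 homing and migration receptors, Cnr2 fell by 0.57 and Selplg by 0.36, and Icam1, a ligand of leukocyte integrins, rose from a mean of 10.8 ± 0.23 CPM to 15.8 ± 0.44 CPM (SD, n = 2, log2 fold change 0.54, edgeR adjusted p = 9.24e-05). The calls of Itgb1 and Icam1 held whichever 1 library was left out, those of Itgal, Itga6 and Cnr2 were lost whichever of the 4 was left out, and that of Selplg without 3 of them. Of 21 B-cell surface genes, Cd40 (above), Spn (-0.85), which encodes CD43, a marker of early B cells, Cd81 (-0.41) and Cd93 (-0.38) fell, and Cd24a (0.34) and Cd53 (0.29) rose, the last a call lost whichever of the 4 libraries was left out. Of 17 genes of heparan sulfate synthesis and its core proteins, Sdc4, a syndecan, rose from 230 and 225 CPM to 325 and 330 CPM (0.53), and Extl2 and Hs3st3b1 fell by 0.62 and 0.32.

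Stress and survival genes were called in both directions. Of 23 genes of the ATF4, amino acid and ER stress list, 6 fell, with Chac1 (-0.80) and Trib3 (-0.68) first, and Creld2 and Hyou1, which assist folding in the endoplasmic reticulum, rose by 0.30 and 0.31. Of 18 heat shock genes and chaperones, Hsph1 (-0.59), Dnajb4 (-0.43) and Chordc1 (-0.28) fell, beside the rise of Dnajc12. Of 9 BCL2 family genes, Bcl2l1 fell, and Bcl2l11, which encodes the proapoptotic BIM, and Bid rose by 0.32 and 0.24. Of 20 interferon-stimulated genes, Irf1 rose by 0.77 and Ifit2 by 0.35, and Stat2 fell by 0.49. Among 21 glycolysis genes Pgk1 (-0.34) and Hk2 (-0.23) fell and Pkm (0.16) rose. Among 20 antiproliferative genes Foxo3 (-0.30) fell and Klf13 (0.27) and Pdcd4 (0.32) rose. Among 32 genes of ribosome biogenesis Ncl (0.21), Polr1b (0.19) and Polr1d (0.17) rose. The calls of Foxo3, Pdcd4, Hsph1, Dnajb4, Irf1 and Stat2 held whichever 1 library was left out, and those of the ribosome biogenesis and glycolysis genes, Creld2, Chordc1, Dnajc12, Bid, Ifit2 and Klf13 did not.

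In 6 of the 37 lists 0 members were called at any fold, by edgeR and by DESeq2. At an unadjusted p under 0.05, cholesterol biosynthesis had 4 lower and 3 higher of 22 tested (median 0.05), NuRD subunits 0 and 5 of 15 (median 0.08) and Notch receptors and targets 1 and 3 of 11 (median 0.11). The snoRNA host genes had 1 and 1 of 13 (median 0.06), MHC class II presentation 0 and 0 of 5 (median 0.11) and the Ikaros family 0 and 1 of 3 (median 0.04). Among NuRD subunits the values ran from -0.02 to 0.16. Of 9 estrogen-responsive genes tested, a list included because 4-OHT is a ligand of estrogen receptors, only Ccnd1 was called, and 2 were lower and 4 higher at an unadjusted p under 0.05 (median 0.11). A p-value that missed the limit does not show that a gene was level.

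**Figure D3:**
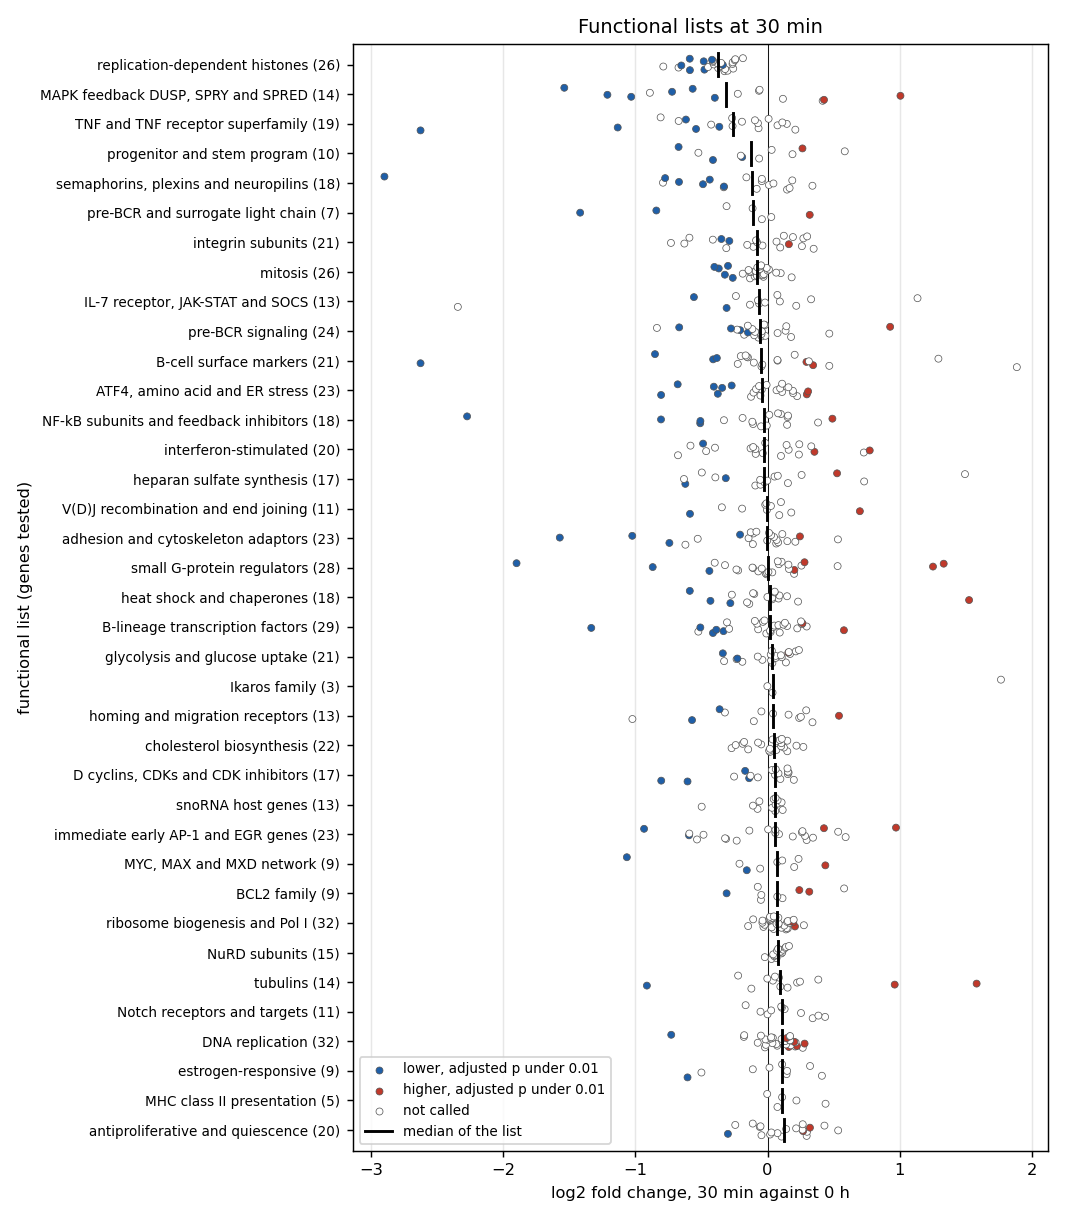
Log2 fold changes at 30 min against 0 h for the tested members of 37 functional lists, 1 point a gene, with lists ordered by their median (black bar). Blue and red points passed an adjusted p-value of 0.01, and the 26 histone genes all lie to the left of 0.

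Targets that the study names fell in most cases. Of 18 tested, 15 fell at any fold and 0 rose by edgeR and by DESeq2, with a median of -0.62 and 0 higher at an unadjusted p under 0.05, and 13 of these calls held whichever 1 library was left out. The study drew them from these same libraries, so this count is no independent evidence of direction. Beside those given above, Gfra2, a receptor of neurturin, went from 875 and 870 CPM to 568 and 578 CPM (log2 fold change -0.61, standard error 0.03, edgeR adjusted p = 2.50e-11), Ramp1, a partner of the calcitonin receptor-like receptor, from 70.1 and 67.6 CPM to 45.3 and 42.5 CPM (-0.65), and Lrrfip1 fell by 0.35. Itga5 (-0.15, adjusted p = 0.213), Espnl (-0.23, adjusted p = 0.0861) and Hs3st2 (-0.63, adjusted p = 0.0595) missed the limit at 30 min.

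The length of called genes depended on the fold limit, which is given as a description with no test. The genes that fell by more than 2-fold spanned 17.2 kb at the median, from 1.65 kb (Sit1) to 596 kb (Frmd4a). The 9 rises, 4 of them with a mean under 1 CPM, spanned 6.95 kb, from 0.481 to 28.1 kb. All genes tested spanned 20.8 kb, and those with a mean of at least 1 CPM 23.8 kb. At any fold the medians were longer than these, 27.2 kb for falls and 29.3 kb for rises. Among genes with a mean of at least 1 CPM, rises at any fold were 7.09% of genes of 50 to 100 kb and 2.21% of genes over 100 kb. Falls at any fold were 7.04% and 7.38% of the same bins. For genes over 100 kb this came to 107 falls and 32 rises of 1449.

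**Figure D4:**
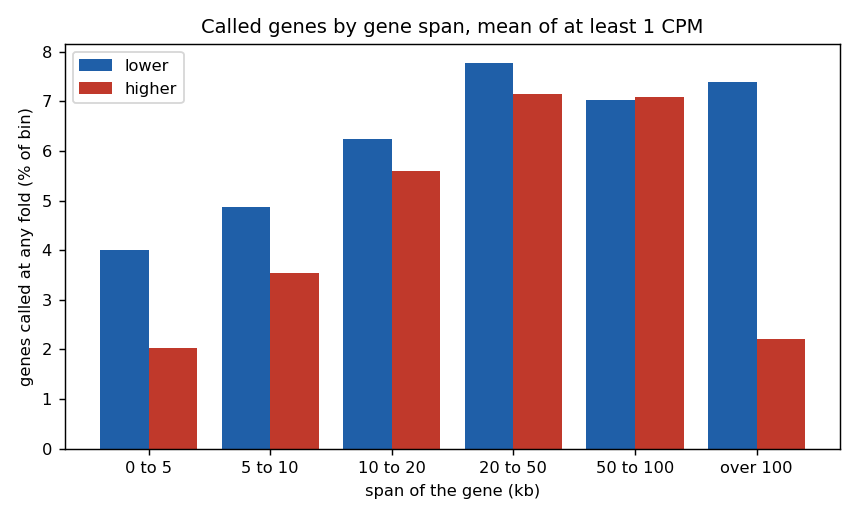
Share of genes called lower (blue) and higher (red) at any fold, in percent of the genes in each bin of gene span in kb, for genes with a mean of at least 1 CPM. Bars for rises and falls are of similar height from 10 to 100 kb and part above 100 kb, at 2.21% and 7.38%.

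Of the 77 genes called above 2-fold, 6 lay within 200 kb of another, in 3 pairs. Vamp5 and Vamp8, which encode proteins of vesicle fusion, start 10.2 kb apart on chromosome 6 and fell together, Vamp5 from 62.7 and 61.2 CPM to 28.7 and 28.3 CPM (log2 fold change -1.12) and Vamp8 from 16.9 and 15.2 CPM to 8.15 and 7.67 CPM (-1.02). Next to them Rnf181 fell by 0.43, while Ggcx, on the other side, was at -0.12 (adjusted p = 0.179). Dusp6 and Gm34921 (-1.41) start 7.21 kb apart on opposite strands of chromosome 10. The third pair was Tubb2b and Gm47076. Without a stated strand setting in the counting, reads of overlapping genes on opposite strands cannot be told apart, and 23 of the 68 falls overlap a gene on the other strand.

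Later levels of the early genes differed from gene to gene, and these later comparisons share the 0 h libraries. Sema7a went on to 0.641 and 1.01 CPM at 1 h and was at 2.86 and 2.39 CPM at 24 h. Igll1 went on to 18.1 and 16.1 CPM at 1 h and to 1.07 and 0.896 CPM at 24 h. Both genes were thus at 30 min still above their level at 1 h in both libraries. Nudt4, by contrast, had 34.2 and 35.6 CPM at 1 h and 28.9 and 28.5 CPM at 24 h, close to its level at 30 min.

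Tnfaip3 had 4.86 and 4.94 CPM at 1 h, about that at 30 min, and was back to 19.9 and 19.2 CPM at 24 h. Dusp6 was at its lowest at 30 min, with 34.5 and 35.8 CPM at 1 h and 42.7 and 41.0 CPM at 24 h. Myc stood at 31.3 and 29.2 CPM at 1 h, as at 30 min, and at 5.55 and 4.40 CPM at 24 h. Among the rises, Dusp5 went on to a mean of 230.1 ± 0.07 CPM (SD, n = 2) at 1 h and 318 and 329 CPM at 24 h. Rgs1 had 45.8 and 47.5 CPM at 1 h and 14.1 and 14.3 CPM at 24 h. The latter lay below its 0 h level but missed the limit (log2 fold change -0.27, edgeR adjusted p = 0.0433). Rgs2 had 48.3 and 48.1 CPM at 1 h and 40.5 and 41.1 CPM at 24 h.

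**Figure D5:**
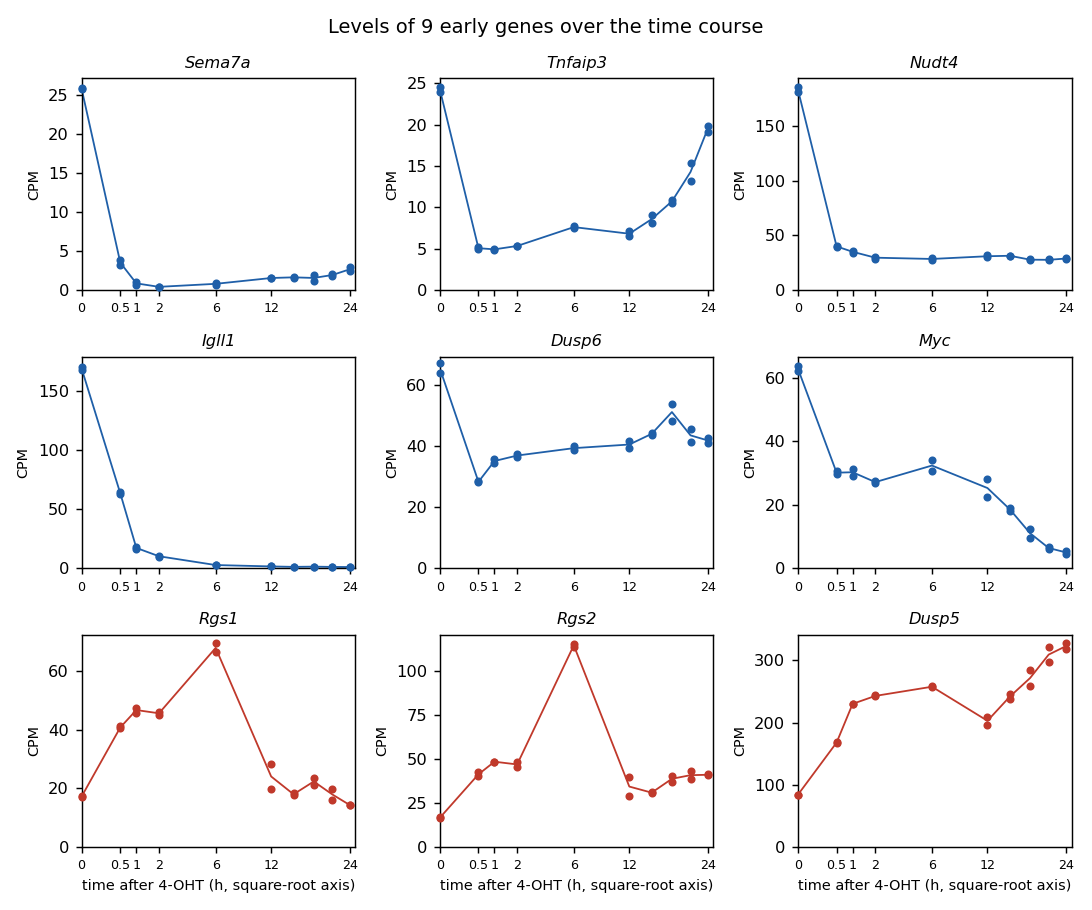
Levels in CPM of 6 genes that fell (blue) and 3 that rose (red) at 30 min, over the 10 time points to 24 h on a square-root time axis. Points are the 2 libraries of each time point and lines join their means, and Dusp6 has its lowest point at 30 min while Igll1 keeps falling.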

How the data were processed

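Chromatin-associated RNA was sequenced from B3 cells carrying Ikaros-ERt2 in 20 libraries, of which the 2 at 0 h and the 2 at 30 min were compared. The authors aligned reads to mm10 (GRCm38) with nf-core/rnaseq and STAR and deposited raw counts per gene from featureCounts, intronic reads included, with no normalization. The submitters' processing notes also name CASAVA 2.17. The annotation release and the strand setting are not given in the sources used here. One model was fitted to all 20 libraries, with the spread of each gene shared by all time points. It covered genes that reached 10 counts in 2 or more libraries, and 30 min was set against 0 h. The quasi-likelihood test of edgeR 4.0.16 in R 4.3.3 was used, with TMM scaling and the time points as groups. Calls needed a Benjamini-Hochberg adjusted p below 0.01, with a fold change above 2 or at any fold. Standard errors are the log2 fold change over the root of the F statistic.

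Library totals ran from 33296158 to 46868954, and intervals cover counting error only. Replicates differed by more than sampling noise, with a chi-square per degree of freedom of 1.41 at 0 h and 1.57 at 30 min. Positions, spans and overlaps came from GENCODE M21, which holds 55240 of 56239 gene identifiers, and promoters from RefSeq on GRCm38.p6, matched by symbol for 11239 of the 16601 genes. Alternatives were DESeq2 1.42.0 (Wald test and time-course test), other scalings, filters and thresholds, the 4 libraries alone, a replicate block and leaving out each library. On simulated counts the steps recovered most of 200 planted changes. These were all above 2-fold and in genes with higher counts, so smaller changes and genes of low level were not covered.

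Genes named are the 20 largest falls with a mean of at least 1 CPM and no overlap of groups, the rises (at most 15), list members called above 2-fold, up to 3 members per list and direction at any fold, the targets the study names, and Ikzf1. Members named to complete a small count, and neighbors, were chosen after their values were seen. A result on 1 list member is not reported here. The comparison and the lists were chosen with earlier results of these data known.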

Additional observations from a re-analysis of the deposited data

How the results depend on the processing

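With a replicate block in the model, 66 genes fell and 8 rose above 2-fold, and 779 fell and 590 rose at any fold. The deviations of same-numbered libraries at 0 h and 30 min correlated at 0.0751 over 9284 genes. This cannot decide whether the numbers pair the libraries, because much of the deviation was sampling noise (chi-square per degree of freedom 1.41 and 1.57). DESeq2's size factors, library totals alone, both other filters and DESeq2's Wald test left the 4 counts within 1.5 times. Above 2-fold, a test against a 2-fold change called 14 falls and 0 rises (9 by the rule used), DESeq2's time-course test with a 2-fold change at 30 min called 261 and 187, and an adjusted p under 0.05 gave 25 rises. At any fold, an adjusted p under 0.05 gave 1242 falls and 1181 rises, a fold above 1.5 gave 250 and 54, and the 4 libraries alone gave 1827 and 1608. Leaving out 1 library gave 51 to 60 falls and 6 to 8 rises above 2-fold, and 432 to 452 falls and 231 to 295 rises at any fold. The cause was not tested, beyond the stricter or looser limits and the smaller number of libraries themselves. No named gene changed direction under any alternative that was run. With 2 libraries a group and no spike-in, a change of all genes alike could not be seen, and genes under 1 CPM rest on few counts.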
